A study of Oryza sativa with 4 samples.

Results

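A group of 32 genes had a lower signal in spikelets titled OsCPK21-RNAi than in spikelets of ZH11 at both anther stages sampled, without a matching decline in ZH11 between the stages. They were chosen from 17905 rice genes that had a probe set of their own on the array. A gene entered the group when the ratio of RNAi over ZH11 was at most 0.5 at stage 12 and at stage 9, and the ratio of ZH11 at stage 12 over ZH11 at stage 9 was above 0.5. Signals below a floor of 71 were raised to 71 before ratios were taken. The signals of all 4 arrays therefore chose the members, and the levels and ratios below are a description without a test.

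The series asked how OsCPK21 bears on pollen development. Whole spikelets were profiled with 1 oligonucleotide array for each of 4 groups: OsCPK21-RNAi at anther stage 12, OsCPK21-RNAi at stage 9, ZH11 at stage 12 and ZH11 at stage 9. The RNAi plants carried an RNA interference construct against OsCPK21 in the ZH11 background, and its promoter is not named in the labels. All plants grew in a field under natural conditions with no treatment. The labels name 3 RNAi lines, and do not say whether each RNAi array held 1 line or a pool. With 1 array in each group no spread between samples could be measured, so no ratio has a replicate check and no p-value is given. Groups follow the sample titles, source names and descriptions. The genotype field of the labels names the opposite genotype on every sample, and each direction given here would turn if that field were right.

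OsCPK21 belongs to the calcium-dependent protein kinases, plant enzymes in which a calcium-binding domain and a kinase domain lie in 1 polypeptide, so that a calcium signal is turned directly into protein phosphorylation. In the rice anther, stage 9 is when young microspores have been released and the tapetum, the nurse tissue that lines the locule, is active. Stage 12 is when pollen matures and the tapetum has degenerated. A spikelet also holds lemma, palea, pistil and other tissues, and in such bulk samples fewer cells of a type and less RNA per cell cannot be told apart.

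A pair of control probe sets bears on the labels. The array carries 64 control probe sets with names beginning RPTR-Os, and the files do not say what they read. RPTR-Os-K01193-1_at had a signal of 2923 in RNAi and 7544 in ZH11 at stage 12, and of 841 in RNAi and 10742 in ZH11 at stage 9. RPTR-Os-A00196-1_s_at had 1318 in RNAi and 5406 in ZH11 at stage 12, and 380.0 in RNAi and 5523 in ZH11 at stage 9. Both were thus bright on the arrays titled ZH11 and dimmer, though well above the floor, on those titled RNAi, while the other 62 stood at 105 or less on every array. From general knowledge, and not from the files, the first is believed to read a bacterial hygromycin resistance gene, a common selection marker in rice transformation. A marker gene of the construct would be brighter on the transgenic arrays, which would go with the genotype field and turn every direction between genotypes. Both probe sets were well above the floor on all 4 arrays, however. Under neither reading of the labels were the plants without the construct free of this signal. OsCPK21, the gene to be silenced, was low on the arrays titled RNAi, which would go with the titles. That level is among the values that chose the members, though the gene itself was named by the study's design. Whether its probe set could also read the construct is not known here. Which arrays came from plants with the construct cannot be told from these files, and "RNAi" and "ZH11" below stand for the arrays so titled.

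Among genes whose signal passed the floor in RNAi or ZH11 at a given stage, 7.04% were lower by at least 2-fold in RNAi at stage 12 and 2.27% at stage 9. Both conditions were met by 42 genes, or 0.235% of all 17905, and the further condition on ZH11 left the 32, or 0.179%. The opposite pattern, at least 2-fold higher in RNAi at both stages, was found in 106 genes (0.592%). Of the probe sets that have no annotated gene, 0.0519% met the same rule. Over the 32 genes the median log2 ratio of RNAi over ZH11 was -1.78 at stage 12, with a range of -5.94 to -1.004, and -1.78 at stage 9, with a range of -5.51 to -1.001. Over all genes above the floor on either array the median was 0.02 at stage 12 and -0.04 at stage 9. These values follow from the choice of members, and nothing is read from them.

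**Figure D1:**
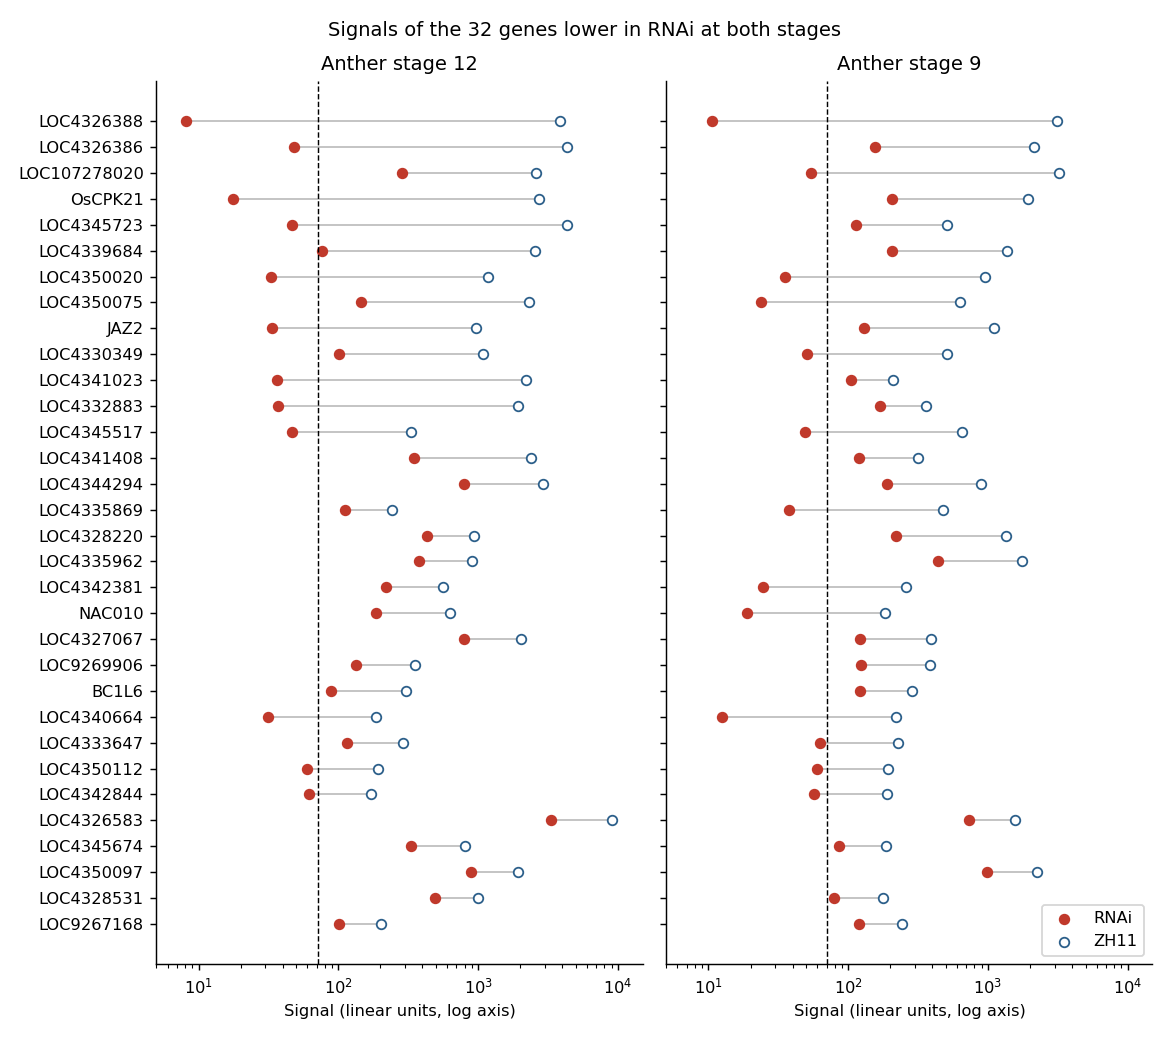
Signal of each of the 32 genes in RNAi (filled) and ZH11 (open) spikelets at stage 12 (left) and stage 9 (right), on a logarithmic axis, 1 array per point, ordered by the mean log2 ratio. The dashed line is the floor of 71, and every ZH11 point lies above it, while 12 RNAi points at stage 12 and 13 at stage 9 lie at or below it.

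The size of the deficit varied widely among the 32. All of them were above the floor on both ZH11 arrays. In RNAi, 6 were at or below the floor at both stages, 6 more at stage 12 alone and 7 more at stage 9 alone, and for these the fold is a lower bound. The other 13 had a measured RNAi signal at both stages. A deficit of at least 4-fold at both stages was seen in 11 genes, against 12 of all 17905 (0.0670%). In 15 no fold reached 4 at either stage, but for 6 of these the fold at 1 or both stages is a bound and could be larger, which leaves 9 measured below 4-fold. At stage 12, 8 genes were at least 16-fold lower, and at stage 9, 2 were. With bounds taken at their value, the ratios of 18 genes lay within 1.5-fold of each other at the 2 stages. Only 9 of these had a measured RNAi signal at both stages, and in the other 9 the shared floor limits the difference. In 7 the log2 ratio was lower at stage 12 than at stage 9 by at least 1, and in 3 it was higher by at least 1.

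**Figure D2:**
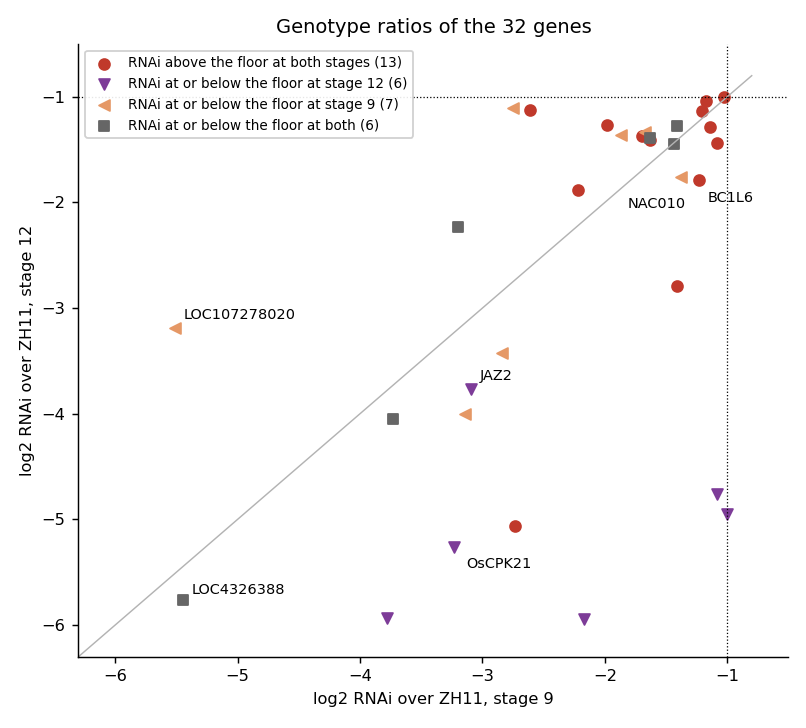
Log2 ratio of RNAi over ZH11 at stage 12 (vertical axis) against stage 9 (horizontal axis) for the 32 genes, marked by where the RNAi signal was at or below the floor. Dotted lines mark the ratio of 0.5 that chose the genes, and points under the grey diagonal had the larger deficit at stage 12, as OsCPK21 and JAZ2 did.

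The gene targeted by the construct was itself among the 32. OsCPK21 (LOC4346187) had a signal of 17.6 in RNAi and 2719 in ZH11 at stage 12, and of 206 in RNAi and 1939.6 in ZH11 at stage 9. It was thus at least 38.3-fold lower at stage 12 and 9.41-fold lower at stage 9. In ZH11 it differed by less than 2-fold between the stages, while in RNAi the stage 12 signal fell below the floor, a decline of at least 2.90-fold. No other calcium-dependent protein kinase matched by name was a member. Of the 20 matched by name, 5 were lower in RNAi at stage 12, against 7.04% of genes, and 1, OsCPK21, at stage 9, against 2.27%. The others lower at stage 12 were CPK2, CPK22, CPK29 and CPK6, at least 42.6-fold, 39.1-fold, 35.4-fold and 23.3-fold, so OsCPK21 stood among them at that stage. In ZH11 at stage 9 these others had signals of 22.35, 33.98, 33.09 and 48.85, in the same order. All lay under the floor, so no stage 9 deficit could be seen for them. CPK2, CPK22 and CPK29 were under it in RNAi at stage 9 too, and the share of 2.27% leaves out such genes. CDPK1 was 2.49-fold higher in RNAi at stage 9. The list's median log2 ratio was -0.03 at stage 12 and -0.04 at stage 9, close to the medians of all genes.

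Of the 32 genes, 4 have a gene name in the RefSeq table and 28 are known there by a locus number only, with no description, so no role is given for those 28. Besides OsCPK21, the named genes are JAZ2, NAC010 and BC1L6.

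JAZ2 (LOC4342421) encodes a member of the jasmonate ZIM-domain family. JAZ proteins hold back transcription factors of the jasmonate pathway until the hormone triggers their destruction, and jasmonate is needed for anther opening and pollen maturation. JAZ2 had a signal of 33.7 in RNAi and 966 in ZH11 at stage 12, and of 130 in RNAi and 1106 in ZH11 at stage 9. The ZH11 arrays stood near each other, and both RNAi arrays stood far below them, at least 13.6-fold lower at stage 12 and 8.54-fold at stage 9. Its 1 probe set can match several transcripts, as its name ending in _s_at shows.

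JAZ2 was the only one of 13 measured JAZ genes that was lower at both stages. At stage 12, 3 of the 13 were lower in RNAi and 1 was higher, where 7.04% of genes were lower and 2.86% higher, and their median log2 ratio was -0.55, against 0.02 over all genes. At stage 9, 1 was lower and 7 were higher, where 2.27% of genes were lower and 3.28% higher, and the median was 1.19, against -0.04. JAZ9 had a signal of 617 in RNAi and 3868 in ZH11 at stage 12, but 7313 in RNAi and 2508 in ZH11 at stage 9, so its genotype ratios lay on opposite sides at the 2 stages. For JAZ3 the log2 ratio was -0.04 at both stages, and for JAZ7 it was -0.07 at stage 12 and -0.12 at stage 9. The wider list of 34 jasmonate genes includes these 13, and JAZ2 was likewise its only member. Of the 34, 5 were lower and 1 was higher in RNAi at stage 12, and 1 was lower and 10 were higher at stage 9, beside the same shares of all genes. The JAZ genes counted above are in these numbers again. OPR12, AOS3, AOS4 and LOX3 were under the floor on every array, and JAZ5, OsTIFY8, OPR4 and LOX8 in both genotypes at stage 9. The shares of all genes at a stage leave out genes under the floor in both genotypes there.

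**Figure D3:**
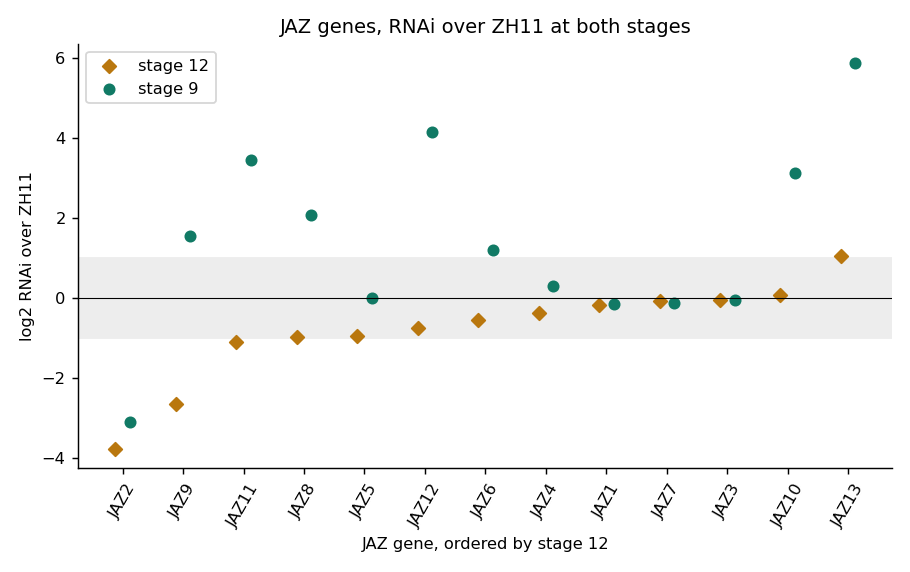
Log2 ratio of RNAi over ZH11 for the 13 JAZ genes at stage 12 (diamonds) and stage 9 (circles), 1 array per genotype and stage. The shaded band spans ratios within 2-fold, and JAZ2 alone lies below it at both stages, while JAZ13, at 1.06 for stage 12 and 5.86 for stage 9, lies above it at both.

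NAC010 (LOC4343630) belongs to the NAC family of plant transcription factors, which act in development, senescence and stress responses. Its signal was 186 in RNAi and 631 in ZH11 at stage 12, and 19.0 in RNAi and 184 in ZH11 at stage 9. The gene was 3.39-fold lower in RNAi at stage 12 and at least 2.59-fold lower at stage 9. It was higher at stage 12 than at stage 9 in both genotypes, by at least 2.62-fold in RNAi and by 3.43-fold in ZH11. Of 8 NAC genes matched by name, NAC010 was the only one lower at either stage. At stage 9, 3 of the others were higher in RNAi, against 3.28% of genes: NAC071 by 5.06-fold, NAC048 by 4.24-fold and NAC067 by 3.03-fold.

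BC1L6 (LOC4343844) is named after the BRITTLE CULM1-like genes, which encode COBRA-like proteins attached to the cell surface. The founding member of the family is required for cellulose assembly in rice cell walls. BC1L6 had a signal of 88.0 in RNAi and 304 in ZH11 at stage 12, and of 122 in RNAi and 286 in ZH11 at stage 9. It was 3.46-fold lower at stage 12 and 2.35-fold lower at stage 9, and its level in ZH11 was nearly the same at both stages, with a ratio of 1.06. Of the 4 COBRA-like genes matched, BC1L9 went the other way, with 866 in RNAi and 300.2 in ZH11 at stage 12 and 1748 in RNAi and 67.2, under the floor, in ZH11 at stage 9. BC1 and BC1L2 were within 2-fold at both stages.

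The 28 locus-number genes, with the 4 named ones, fell into groups by how their level differed between stages within each genotype. The rule barred a 2-fold decline in ZH11, and these stage ratios share arrays with the genotype ratios, so the counts are a description. In ZH11, 14 of the 32 were at least 2-fold higher at stage 12 than at stage 9, against 17.1% of all genes above the floor on either ZH11 array, and 18 were within 2-fold. In RNAi, 10 were at least 2-fold higher at stage 12, against 15.0% of genes above the floor there, and 4 were lower, against 15.8%. A further 6 were measured on both RNAi arrays and within 2-fold. For another 6, JAZ2, LOC4345723, LOC4341023, LOC4330349, LOC4335869 and LOC4333647, 1 RNAi array was at or below the floor and the stage ratio is a bound short of 2-fold, so their class is unsettled. For the 6 at or below the floor on both RNAi arrays no stage ratio can be given.

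**Figure D4:**
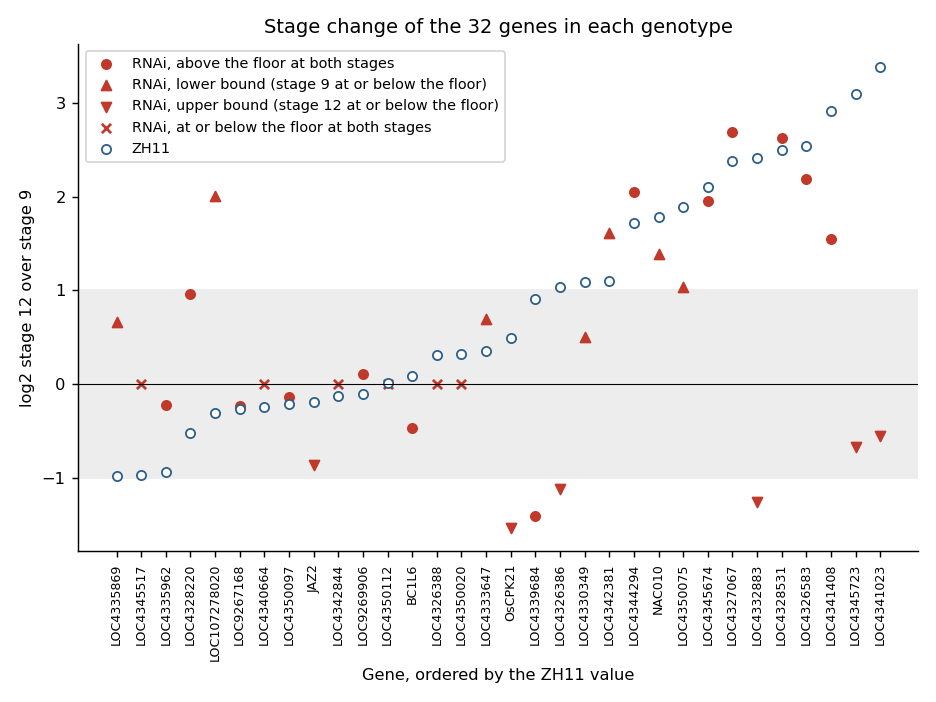
Log2 ratio of stage 12 over stage 9 for each of the 32 genes in RNAi (filled) and ZH11 (open), ordered by the ZH11 value. Triangles mark RNAi ratios that are bounds because 1 array was at or below the floor, pointing to where the true value may lie, crosses mark the 6 genes at or below it at both stages, and the shaded band spans ratios within 2-fold. LOC4332883 and LOC4326386 lie above the band in ZH11 and below it in RNAi.

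A first group of 6 genes was measured in ZH11 and was at or below the floor on both RNAi arrays. LOC4326388 was the brightest, with 8.10 in RNAi and 3848 in ZH11 at stage 12, and 10.6 in RNAi and 3102 in ZH11 at stage 9. It was at least 54.2-fold lower at stage 12 and at least 43.7-fold at stage 9. LOC4350020 had 33.1 in RNAi and 1176 in ZH11 at stage 12, and 35.1 in RNAi and 944 in ZH11 at stage 9. LOC4345517 had 46.9 in RNAi and 333 in ZH11 at stage 12, and 49.3 in RNAi and 651 in ZH11 at stage 9. For all 3 the RNAi arrays lay far below both ZH11 arrays. The remaining genes of this group, LOC4340664, LOC4350112 and LOC4342844, were dim in ZH11 as well, between 172 and 193 at stage 12 and between 188 and 220.0 at stage 9, and their bounds lay between 2.43-fold and 3.10-fold over both stages. In all 6 the ZH11 level differed by less than 2-fold between the stages.

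A second group of 9 genes was higher at stage 12 than at stage 9 in both genotypes, while staying lower in RNAi at each stage. The brightest was LOC4326583, with 3343 in RNAi and 9039 in ZH11 at stage 12, and 731 in RNAi and 1551 in ZH11 at stage 9. Its level was 4.58-fold higher at stage 12 in RNAi and 5.83-fold in ZH11. LOC4344294 had 790.0 in RNAi and 2915 in ZH11 at stage 12, and 191 in RNAi and 886 in ZH11 at stage 9. LOC4341408 had 348 in RNAi and 2401 in ZH11 at stage 12, and 119 in RNAi and 317 in ZH11 at stage 9. For LOC4326583 and LOC4341408 the RNAi array at stage 12 stood above the ZH11 array at stage 9, and for LOC4344294 it stood below. The deficit of LOC4341408 was larger at stage 12, 6.91-fold, than at stage 9, 2.67-fold. LOC4350075 had 146 in RNAi and 2329 in ZH11 at stage 12, and 23.6 in RNAi and 627 in ZH11 at stage 9, which made it 15.97-fold lower at stage 12 and at least 8.84-fold lower at stage 9. For LOC4327067, LOC4328531, LOC4342381 and LOC4345674, and for NAC010 above, the deficit was 2.06-fold to 3.39-fold at stage 12 and 2.20-fold to 3.65-fold at stage 9, with the stage 9 values of LOC4342381 and NAC010 being bounds.

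A further group of 5 genes was at least 2-fold higher at stage 12 in ZH11, with no 2-fold rise measured in RNAi. For LOC4330349 the RNAi rise of at least 1.42-fold is a bound, so a rise of 2-fold or more there is possible. LOC4345723 had 46.7 in RNAi and 4358 in ZH11 at stage 12, and 113 in RNAi and 511 in ZH11 at stage 9. LOC4341023 had 36.4 in RNAi and 2189.98 in ZH11 at stage 12, and 105 in RNAi and 209.5 in ZH11 at stage 9. LOC4330349 had 101 in RNAi and 1081 in ZH11 at stage 12, and 50.7 in RNAi and 509 in ZH11 at stage 9. In each of them the ZH11 array at stage 12 was the highest of the 4, and the deficit in RNAi at stage 12 was at least 61.4-fold for LOC4345723, at least 30.8-fold for LOC4341023 and 10.7-fold for LOC4330349. Their ZH11 levels were 8.53-fold, 10.5-fold and 2.12-fold higher at stage 12 than at stage 9, in the same order of genes.

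In the other genes of this group, LOC4326386 and LOC4332883, the stages differed in opposite directions in the 2 genotypes. LOC4326386 had 48.1 in RNAi and 4344 in ZH11 at stage 12, and 155 in RNAi and 2118 in ZH11 at stage 9. LOC4332883 had 36.8 in RNAi and 1922 in ZH11 at stage 12, and 170 in RNAi and 360 in ZH11 at stage 9. LOC4326386 was at least 61.2-fold lower in RNAi at stage 12 and 13.7-fold lower at stage 9, and for LOC4332883 the deficit was at least 27.1-fold and 2.12-fold. Over all genes above the floor on either ZH11 array, 0.482% were at least 2-fold higher at stage 12 in ZH11 and at least 2-fold lower in RNAi. OsCPK21 and LOC4339684 were also lower at stage 12 than at stage 9 in RNAi, while within 2-fold in ZH11. LOC4339684 had 77.0 in RNAi and 2569.75 in ZH11 at stage 12, and 205 in RNAi and 1365 in ZH11 at stage 9, so it was 33.4-fold lower at stage 12 and 6.64-fold lower at stage 9.

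LOC107278020 was higher at stage 12 in RNAi but not in ZH11. It had 286 in RNAi and 2604 in ZH11 at stage 12, and 54.2 in RNAi and 3239 in ZH11 at stage 9. The RNAi signal was below the floor at stage 9 and above it at stage 12, and the deficit was 9.10-fold at stage 12 and at least 45.6-fold at stage 9. LOC4335869 may do the same, since its RNAi signal was 112 at stage 12 and 38.0, under the floor, at stage 9, a rise of at least 1.58-fold, against 242 and 477 in ZH11 at the same stages.

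In the last 9 genes, BC1L6 among them, the ZH11 level was within 2-fold between stages and no 2-fold difference was measured in RNAi. In 6 of them both RNAi signals were above the floor, and in JAZ2, LOC4335869 and LOC4333647 the RNAi ratio is a bound. LOC4350097 had 885 in RNAi and 1942 in ZH11 at stage 12, and 975 in RNAi and 2245 in ZH11 at stage 9, a deficit of 2.19-fold and 2.30-fold. LOC4335962 had 376 in RNAi and 903 in ZH11 at stage 12, and 439 in RNAi and 1737 in ZH11 at stage 9. LOC4328220 had 429 in RNAi and 937 in ZH11 at stage 12, and 219.9 in RNAi and 1346 in ZH11 at stage 9. In LOC4335962 and LOC4328220, and in the dimmer LOC4335869, the deficit at stage 12 was smaller than at stage 9: 2.41-fold against 3.96-fold, 2.19-fold against 6.12-fold, and 2.15-fold against at least 6.72-fold. For LOC4333647, LOC9269906 and LOC9267168 the deficit was at most 2.66-fold at stage 12 and between 2.04-fold and 3.18-fold at stage 9, the last value being a bound.

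The 32 genes were unevenly spread over the chromosomes of the RefSeq gene table, which was used for gene order only. Chromosome 7 held 7 of its 1373 measured genes, or 0.510%, chromosome 11 held 5 of 846, or 0.591%, and chromosomes 9 and 10 held none. LOC4326386 and LOC4326388 on chromosome 1 were neighbours, with no other measured gene and 1 annotated gene between them. Both were bright in ZH11, and LOC4326388 was below the floor in RNAi at both stages and LOC4326386 at stage 12.

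All 5 members on chromosome 11 lay within 55 consecutive measured genes. In windows of 60 measured genes, a width chosen after the positions were seen, no other chromosome had more than 2 members in a window. In the order of the chromosome they were LOC9267168, LOC4350020, LOC4350075, LOC4350097 and LOC4350112. The RNAi signal of LOC9267168 was 101 at stage 12 and 119 at stage 9, against 202 and 243 in ZH11 at the same stages. LOC4350112 had 59.9 in RNAi and 193 in ZH11 at stage 12, and 60.1 in RNAi and 192 in ZH11 at stage 9. In 4 of the 5, LOC4350075 being the exception, the ZH11 level differed by less than 1.25-fold between stages. Only LOC4350020 and LOC4350075 met the rule under every other scaling, floor and probe set choice tried. LOC9267168, at the start of the stretch, was lost under each of them. LOC4350112, at its end, was lost at the higher floor and with the mean over probe sets. LOC4350097 was lost when arrays were scaled to a common median.

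With signals raised to the floor, 39 of the 55 genes were within 2-fold at both stages. LOC4350043, LOC4350071, LOC4350096 and LOC4350110 are among the 39 but were under the floor on every array, so they could not differ. The matching share over all genes was not computed. By stage, 7.04% of genes were lower and 2.86% higher in RNAi at stage 12, and 2.27% and 3.28% at stage 9. Whether the stretch differs from other genes was thus not tested. Its median log2 ratio was -0.01 at stage 12 and -0.02 at stage 9. LOC4350011, between the first and the second member, was on the other side at both stages, with 358 in RNAi and 71.1 in ZH11 at stage 12, and 345 in RNAi and 71.5 in ZH11 at stage 9. LOC4350062 was lower in RNAi at both stages and was kept out by the condition on ZH11, with 32.5 in RNAi and 181 in ZH11 at stage 12, and 42.5 in RNAi and 469 in ZH11 at stage 9. LOC4350105 had 19.7 in RNAi and 133 in ZH11 at stage 12, and 20.6 in RNAi and 136 in ZH11 at stage 9. Its ratios of at most 0.532 and 0.521 are set by the floor, and it met the rule when no floor was used. LOC4350057 had 18.0 in RNAi and 82.3 in ZH11 at stage 12, and 21.8 in RNAi and 103 in ZH11 at stage 9. It too met the rule when no floor was used, and LOC4350023 met it with the mean over its probe sets. Among the 791 measured genes of chromosome 11 outside the stretch, 1 was lower and 3 were higher in RNAi at both stages.

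**Figure D5:**
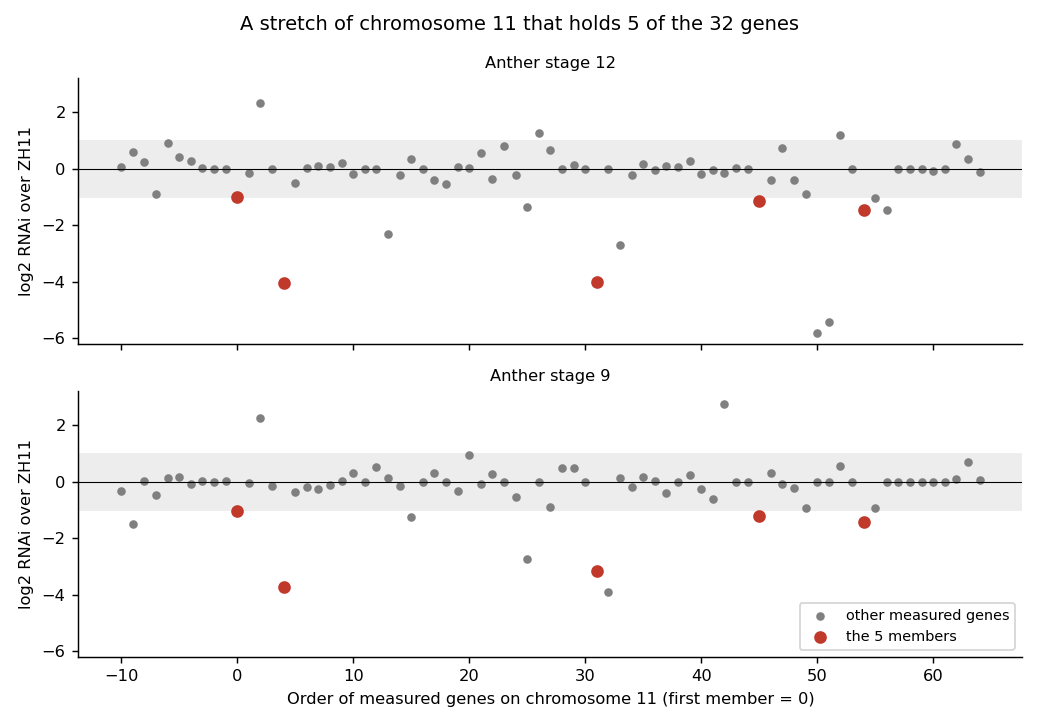
Log2 ratio of RNAi over ZH11 at stage 12 (upper panel) and stage 9 (lower panel) for measured genes in their order along chromosome 11, with the 5 members in red and 10 further genes on either side. The shaded band spans ratios within 2-fold. With signals raised to the floor, the members lie among neighbours that mostly fall inside it.

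Some of the genes could be read from a second probe set that the rule had not used, on the same arrays. Of the 32 genes 7 had 1 or more others, 9 probe sets in all, and 3 of these were above the floor on both ZH11 arrays. The other probe set of LOC4350020 had 49.6 in RNAi and 981 in ZH11 at stage 12, and 36.6 in RNAi and 724 in ZH11 at stage 9. For LOC4335962 the other probe set gave a log2 ratio of -1.19 at stage 12 and of -1.79 at stage 9, and for LOC4327067 these were -1.53 and -0.77. The last value is a bound, with 39.6 in RNAi, under the floor, and 121 in ZH11. A 2-fold deficit could not be seen there. Thus 3 of the 9 were lower in RNAi at stage 12 and 2 at stage 9. Over all such further probe sets in the table the shares were 3.38% at stage 12 and 0.993% at stage 9. The remaining 6 were at or below the floor in ZH11 on 1 or both arrays and within 2-fold, so they gave no reading of the deficit.

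The threshold cut through a continuous range. Just inside it by the larger of the 2 genotype ratios were LOC4341023 (0.4996), LOC9267168 (0.499), LOC4328531 (0.486), LOC4332883 (0.472) and LOC4326583 (0.471). Just outside were LOC4324891 (0.5003), LOC4329432 (0.511), LOC4344725 (0.514), LOC4328501 (0.524) and LOC9266242 (0.531), the last of which follows directly after LOC4350112 on chromosome 11. For LOC4329432, LOC4344725 and LOC9266242 the RNAi signal behind that ratio was under the floor, so the true ratio may be lower, and all 3 met the rule when no floor was used. By the Euclidean distance of log2 signals over the 4 arrays, the 5 non-members nearest to the median profile of the 32 were LOC4338640, LOC4348605, LOC4348958, LOC4334421 and LOC4336826, at distances of 1.26 to 1.58. All 5 were lower in RNAi at stage 12, with log2 ratios of -3.81 to -2.55, those of LOC4338640 and LOC4336826 being bounds, and within 2-fold at stage 9, at -0.76 to -0.31.

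Levels of cell type markers differed between the arrays too. The 9 floral organ genes of the MADS-box family were above the floor on every array, with summed signals of 55525 in RNAi and 52639 in ZH11 at stage 12, and 35787 in RNAi and 44258 in ZH11 at stage 9. The 7 late pollen markers, the beta-expansins EXPB9 and EXPB10 among them, summed to 545 in RNAi and 48350.1 in ZH11 at stage 12, and to 466 in RNAi and 453 in ZH11 at stage 9. All 7 were lower in RNAi at stage 12, EXPB9, EXPB10 and ADF6 being below the floor there, and none at stage 9. In ZH11 at stage 9, however, 4 of the 7 were at or below the floor, and ADF6 and RTS had 82.4 and 79.3. Only SWEET5, with 145.55, was bright enough there for a 2-fold deficit to be seen. The gap of the late pollen markers at stage 12 lay beside the stage 12 deficits of the 32 genes, and its part in them was not tested. The 9 tapetum and pollen wall markers summed to 3370 in RNAi and 1623 in ZH11 at stage 12, and to 29354 in RNAi and 48993 in ZH11 at stage 9, where 5 were lower in RNAi, OsC6 and CP1 being below the floor, and PTC1 was 2.20-fold higher. RAFTIN1 alone set the direction of the stage 12 sum, with 2149 in RNAi and 199 in ZH11, and the other 8 summed to 1222 in RNAi and 1424 in ZH11 there. OsC6 was the only one lower at stage 12, with 37.8 in RNAi and 162 in ZH11. The part of that gap in the stage 9 deficits was not tested either. The 4 meiotic markers and the 4 markers of green tissue held no gene past 2-fold at either stage. No marker of these lists was a member, but for many of them this was fixed in advance. For the late pollen markers other than SWEET5 the floor fixed it. The floor did so too for the meiotic markers DMC1 and PAIR1, with 115 and 71.2 in ZH11 at stage 9. For the tapetum and pollen wall markers the condition on ZH11 fixed it. Their highest ZH11 ratio of stage 12 over stage 9 was 0.403, in CP1.

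The signal of the actin control at the 3-prime end over that at the 5-prime end, which grows as RNA degrades, was 16.9 in RNAi and 20.0 in ZH11 at stage 12, and 8.75 in RNAi and 7.83 in ZH11 at stage 9. The gap was smaller for the Gapdh control. At stage 12 its 3-prime and 5-prime signals were 12345 and 3549 in RNAi, and 11841 and 3401 in ZH11. The actin control was itself lower in RNAi at stage 12, by 2.69-fold at the 3-prime end and 2.28-fold at the 5-prime end. The median signal of all probe sets was 75.2 in RNAi and 83.8 in ZH11 at stage 12, and 81.7 in RNAi and 85.04 in ZH11 at stage 9. The 36 control probe sets for dap, lys, phe and thr, transcripts that can be added to the RNA, were all higher in RNAi at stage 12, with a median log2 ratio of 0.49, and all lower in RNAi at stage 9, with a median of -0.64. The part of these differences in the results was not tested. Bringing the arrays to a common median raised the median log2 genotype ratio of genes above the floor by 0.15 at stage 12 and by 0.06 at stage 9, and 26 of the 32 genes then still met the rule.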

How the data were processed

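The authors deposited linear intensities, with a single signal for each probe set on each of 4 arrays. MAS5 is named, without its role, per the submitters' processing notes, and the sources used here give neither its version nor a scaling target nor detection calls. The table held 57381 probe sets, 187 of them controls. The platform annotation gave 1 gene for 22436 of them, and the RefSeq gene table of assembly ASM3414082v1 gave names and gene order. For the 3444 genes with several probe sets, the brightest by mean log2 signal was used. Signals under 71 were raised to 71. Ratios with an array at or below the floor are bounds, and "higher" or "lower" means a difference of 2-fold or more where the brighter of both arrays passed the floor. Precision is limited by the small number of arrays.

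The members and gene lists were chosen with earlier results of these data known, and the NAC and COBRA-like lists after the members were seen. The named genes were those with a gene name, the 12 locus-number genes with the lowest mean log2 ratio, the 8 brightest in ZH11, and those next to the threshold. Other members were named after their values were seen. Lists sought by protein description and promoter or protein sequences were not used here. The rule was tried on simulated data with deficits planted in bright genes only, so that trial does not cover members near the floor. Python 3.11.15, pandas 2.3.3 and numpy 2.4.6 were used. Alternatives covered scaling, floor, probe set choice and thresholds.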

Additional observations from a re-analysis of the deposited data

Results flagged for a closer look

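In LOC4326386 the log2 ratio of stage 12 over stage 9 was -1.12 in RNAi and 1.04 in ZH11, and in LOC4332883 it was -1.26 in RNAi and 2.42 in ZH11. Each genotype thus moved the opposite way, on 1 array per group, and this difference was not tested. The RNAi signals at stage 12 of both genes were below the floor, so the RNAi declines are bounds.

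Signals were also present in probe sets outside the gene counts. The control probe set RPTR-Os-A00196-1_s_at had log2 ratios of RNAi over ZH11 of -2.04 at stage 12 and -3.86 at stage 9. For RPTR-Os-K01193-1_at they were -1.37 at stage 12 and -3.68 at stage 9. Of the 34663 probe sets with no annotated gene, 18 met the same rule as the 32 genes, or 0.0519%.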

How the results depend on the processing

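With arrays scaled to a common median 26 genes met the rule, all among the 32, and with quantile normalization 27 did. With the mean over a gene's probe sets 30 met it, 28 of them among the 32, and without cross-matching probe sets 28 did, 27 of them shared. A floor raised to 2 times its value left 21 genes, moved the median log2 ratio at stage 9 to -1.45 and left 0 members lower at stage 12 than at stage 9 in RNAi, since a higher floor shortens every ratio to a dim array. Without a floor and with a pseudocount of 16, 41 genes met it, 30 of them shared, the stage 9 median was -2.08, and 7 members were lower at stage 12 in RNAi. A ratio of at most 0.25 left 11 genes and one of at most 0.67 gave 83. Of the 32, 17 met the rule under both other scalings, both other treatments of low signals and the mean over probe sets, OsCPK21, JAZ2 and BC1L6 among them. NAC010 was lost at the higher floor, and JAZ2, LOC4326583 and LOC4327067 had no probe set left without cross-matching ones. In that setting LOC4340664 and LOC9267168 were read from probe sets under the floor on every array. Their log2 ratios were then 0 at both stages, so no deficit was seen. Where a value could be given, no member's genotype ratio turned to the other side under these scalings, floors and probe set choices. A ratio held by the floor could not do so. No paired analysis was possible because each group had 1 array.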

Other observations

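Among the 18 probe sets without an annotated gene, the one with the largest deficit at stage 12 had 44.8 in RNAi and 5151 in ZH11 at stage 12, and 30.1 in RNAi and 262 in ZH11 at stage 9. The one with the largest deficit at stage 9 had 85.2 in RNAi and 1575 in ZH11 at stage 12, and 111 in RNAi and 1891 in ZH11 at stage 9, a deficit of 18.5-fold and 17.0-fold that was nearly the same at both stages. Both were singled out after their values were seen. The 10 genes that were lower in RNAi at both stages but failed the condition on ZH11 included OsC6 (LOC4350790), a lipid transfer protein of the tapetum, with 37.8 in RNAi and 162 in ZH11 at stage 12, and 45.4 in RNAi and 8767 in ZH11 at stage 9. Nearest to the condition among them was LOC4344283, with a ZH11 ratio of stage 12 over stage 9 of 0.403 and with 26.1 in RNAi and 544 in ZH11 at stage 12, and 140 in RNAi and 1351 in ZH11 at stage 9.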
